A study of Mus musculus with 2 samples.

Results

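Dual-specificity phosphatases, Sprouty and Spred proteins are the brakes that growth factor signaling places on itself, and their transcripts were compared between wild type and Ebp1 knock out mouse embryo fibroblasts (MEFs). The 10 genes Dusp1, Dusp4, Dusp5, Dusp6, Dusp14, Spry1, Spry2, Spry4, Spred1 and Spred2 were taken by name, out of 18193 gene symbols on the arrays, with no threshold on a measured value. They were chosen with earlier results of these data known. All 10 were found, on 25 probe sets that each name a single gene. The signal was higher in knock out MEFs for Dusp1 (1.76-fold), Dusp4 (1.82-fold), Dusp14 (1.70-fold) and Dusp5, whose low wild type signal allows only a bound of at least 1.70-fold, while Dusp6 and the 5 Sprouty and Spred genes lay within 1.17-fold of the wild type signal. None of the 10 genes reached a 2-fold difference.

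MEFs of both genotypes came from day 12.5 embryos, were grown in medium with fetal bovine serum and are labelled as passage 2. The knock out cells are homozygous for a retroviral gene trap in Pa2g4, the gene of Ebp1 (ErbB3 binding protein 1), made in ES cells of a single 129/SvEvBrd clone and kept on a mixed C57BL/6 and 129SvEvBrd background. The wild type cells carry no trap. RNA of each genotype was hybridized to 1 array, and the number of embryos or cultures behind it is not stated in the methods or labels. With no replicates there is no spread to set a difference against, so signals stand without an error and no test was run. Since RNA was taken from whole cultures, fewer cells of a type and less RNA per cell cannot be told apart.

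In growth factor signaling, a receptor at the cell surface activates Ras, which starts the kinase chain of Raf, MEK and ERK. ERK enters the nucleus and induces early genes, among them genes for its own inhibitors. Sprouty proteins act near the membrane and dampen the step from receptor to Raf. Spred proteins carry neurofibromin, which switches Ras off, to the membrane. Dual-specificity phosphatases act at the end of the chain and remove phosphate from both the threonine and the tyrosine of an active MAP kinase. In fibroblasts several of these genes are known to respond to serum and growth factors.

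The check of the labels and of the cell type came first. The brightest probe set of Pa2g4 read 1835 in wild type cells against 1178 in knock out cells (log2 ratio -0.64), and its other 4 probe sets were lower in knock out cells too. The paper reported no Ebp1 transcript by RT-PCR and no Ebp1 protein by Western blot in knock out MEFs. On the array labelled knock out the target signal was lower but not lost. The second probe set still had 1072 in knock out cells against 1343 in wild type cells (-0.33), so these probe sets show no full loss. What the remaining signal in the library labelled knock out stems from was not tested. Here "knock out" means that library, and every direction rests on its label. Signals are linear MAS5 intensity units, and every log2 ratio divides the knock out by the wild type signal. All 10 fibroblast markers reached 500 on both arrays, with summed signals of 57358 and 60769.5. Among them Vim (9308 and 11051) and S100a4 (5499 and 7192) were higher in knock out cells, and Pdgfrb (3098 and 1952) and Thy1 (4173 and 2784) were lower. Of the 5 epithelial markers, 1 reached 100 in wild type and 2 did so in knock out MEFs. The epithelial signals summed to 436 for wild type and 1759 for knock out cells, and each of the 5 was higher in the latter. The difference lay mostly in Epcam (174 and 1350.5), followed by Krt19 (88.0 and 197). Krt8 (73.5 and 91.9), Krt18 (89.4 and 99.7) and Cdh1 (11.5 and 19.5) were under 100 on both arrays, Cdh1 far under it. The summed endothelial signal was 199 and 220, the leukocyte signal 700.2 and 685, the neural signal 1517 and 1806, the skeletal muscle signal 381 and 439 and that of the 2 erythroid markers found on the arrays 18.3 and 37.0. The part of these cells in the differences given here was not tested.

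The promoters of 3 of the genes with a higher signal and of Dusp6, which was level, are shown first, because immediate early genes are read out through short elements near the start site. Each run is the 250 bases before the RefSeq start (GRCm38.p6, a C57BL/6J reference), written in the direction of transcription, with matches to the elements searched in capitals. Dusp1 is at chr17:26508473-26508722 on the minus strand, Dusp5 at chr19:53528895-53529144 on the plus strand, Dusp14 at chr11:84068358-84068607 on the minus strand and Dusp6 at chr10:99262981-99263230 on the plus strand.
Dusp1: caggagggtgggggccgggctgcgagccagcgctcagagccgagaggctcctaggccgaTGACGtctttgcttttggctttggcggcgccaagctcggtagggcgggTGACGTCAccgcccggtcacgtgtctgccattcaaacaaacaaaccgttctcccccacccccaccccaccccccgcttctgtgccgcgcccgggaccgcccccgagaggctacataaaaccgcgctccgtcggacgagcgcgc
Dusp5: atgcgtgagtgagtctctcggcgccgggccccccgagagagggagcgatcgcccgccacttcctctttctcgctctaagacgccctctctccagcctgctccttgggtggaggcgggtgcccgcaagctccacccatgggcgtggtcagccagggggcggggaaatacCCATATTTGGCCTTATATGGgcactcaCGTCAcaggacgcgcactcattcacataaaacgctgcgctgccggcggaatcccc
Dusp14: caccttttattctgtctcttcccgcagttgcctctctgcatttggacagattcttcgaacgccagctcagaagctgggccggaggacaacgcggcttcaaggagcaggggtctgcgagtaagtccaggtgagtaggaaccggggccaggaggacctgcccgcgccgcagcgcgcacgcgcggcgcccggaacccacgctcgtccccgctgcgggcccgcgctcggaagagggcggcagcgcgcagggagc
Dusp6: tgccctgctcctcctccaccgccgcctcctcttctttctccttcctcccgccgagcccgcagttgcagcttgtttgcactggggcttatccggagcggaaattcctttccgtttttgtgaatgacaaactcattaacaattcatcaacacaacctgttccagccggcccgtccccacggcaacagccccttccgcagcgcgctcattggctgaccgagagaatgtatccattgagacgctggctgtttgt

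The search used both strands and covered the cAMP response element TGACGTCA, its shorter form TGACG, the AP-1 element TGANTCA, the TATA element TATAAA, the ETS element CCGGAAGT and the CArG box, to which serum response factor binds. The shorter form lies inside each full cAMP response element, so these matches overlap. Of 8 members with a promoter sequence (all but Dusp4 and Spry4), Dusp1 held the full cAMP response element, starting 143 bases before the start site, and a further short form at 191 bases. The full element was present in 1.55% of 32851 promoters of the same length. Dusp5 held a pair of adjoining CArG boxes, starting 82 and 72 bases before the start site, and a short form at 55 bases. A CArG box was present in 1.47% of all promoters. The short form, found in 17.8% of all promoters, was also present in Spred2 at 51 bases. Dusp14, Dusp6, Spred1, Spry1 and Spry2 held none of the elements in this window. AP-1, TATA and ETS elements, present in 6.75%, 12.4% and 2.88% of all promoters, were found in none of the 8. A match is a description of the letters and not a measured binding site.

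The phosphatases that act in the nucleus had ratios close to each other. Dusp1 encodes MKP-1, an immediate early phosphatase of p38, JNK and ERK, and it read 994 in wild type MEFs against 1752 in knock out MEFs. This is a 1.76-fold higher signal (log2 ratio 0.82) on the only probe set of the gene. Dusp1 was the sole phosphatase among the 10 genes with a signal of at least 500, the minimum that the study applied. Dusp4, which encodes the inducible nuclear phosphatase MKP-2, had 162 and 294, a 1.82-fold higher signal (0.86). Dusp5, which encodes a nuclear phosphatase selective for ERK, had 89.9 and 170, a ratio of 1.89 (0.92). As its wild type signal lies under 100, where signals count as low, the difference is at least 1.70-fold with the low signal set to 100. These 3 genes spanned log2 ratios from 0.82 to 0.92.

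Dusp14 encodes MKP6, a small phosphatase without the kinase-binding domain of the others, and was placed with the nuclear genes by its values. Its signals were 261 for wild type and 444 for knock out cells, 1.70-fold higher in the latter (log2 ratio 0.76). Dusp6 stood apart from the other phosphatases. It encodes MKP-3, a cytoplasmic phosphatase selective for ERK. Its signals were 390.0 for wild type and 383 for knock out cells (log2 ratio -0.03, and 0.00 after quantile normalization and loess). Relative to Dusp6 on the same arrays, the log2 ratio of Dusp14 was higher by 0.79, that of Dusp1 by 0.85, that of Dusp4 by 0.89 and that of Dusp5 by 0.95. Such a difference between genes does not depend on a constant scaling factor. Each of these 5 phosphatase genes has 1 probe set, so none of these ratios could be set against another probe set of the gene.

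**Figure D1:**
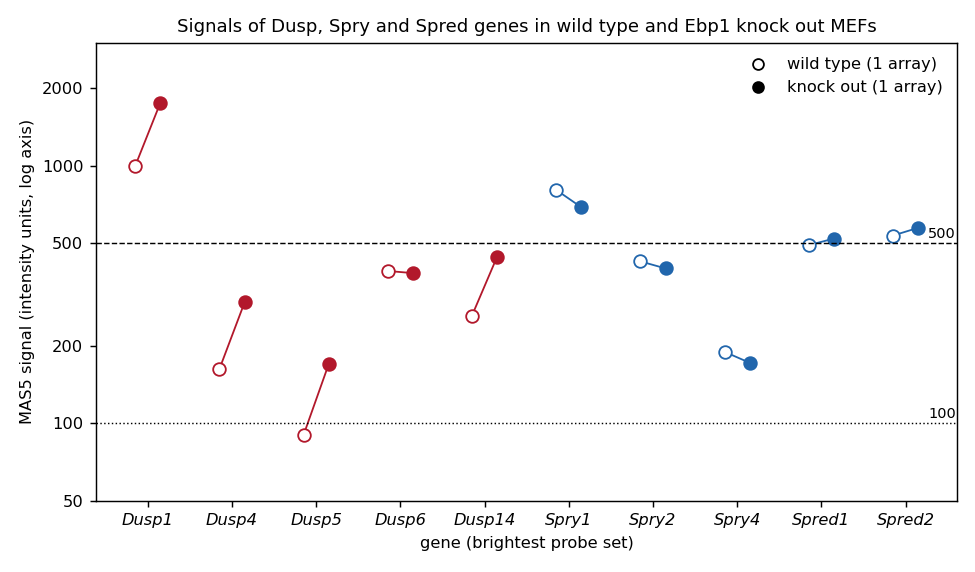
MAS5 signals (log axis) of the brightest probe set of each gene, wild type as open and knock out as filled points, 1 array each, with phosphatase genes in red and Sprouty and Spred genes in blue. The lines of Dusp1, Dusp4, Dusp5 and Dusp14 climb from 994, 162, 89.9 and 261 to 1752, 294, 170 and 444, and the other 6 are nearly flat.

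The Sprouty genes had slightly lower signals in knock out MEFs. Spry1, which encodes a feedback inhibitor of FGF and other receptor kinases, had 805 and 689 on its only probe set (log2 ratio -0.23, 1.17-fold lower). Spry2, the Sprouty that also binds the ubiquitin ligase Cbl, had 425 and 399 on its brightest probe set (-0.09), while the second one was dim (38.3 and 25.4). Spry4, another member of the Sprouty family, had 189 and 172 (-0.14). A dimmer probe set of Spry4 had 122 and 64.3, which is at least 1.22-fold lower with the low signal set to 100, and its other 2 probe sets were near background (11.2 and 10.9, and 4.86 and 8.24). The brightest probe sets of the 3 genes were lower in knock out MEFs under quantile normalization and loess too. Median centring and spike-in scaling lower every log2 ratio, so they could not bring these above 0. The median log2 ratio of all genes that reached 100 was itself -0.06. Of genes of like signal, 69.8% had a log2 ratio at least as high as that of Spry1, 48.6% as that of Spry2 and 58.4% as that of Spry4.

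The Spred genes were level on their brightest probe sets. Spred1, the gene mutated in Legius syndrome, had 491 and 521 on its brightest probe set (log2 ratio 0.09). Spred2 had 535 and 574 (0.10). Median centring and spike-in scaling put both genes below 0, and quantile normalization and loess left them above it. Spred1 gives the closest view of how far probe sets of a gene can part, with 7 that reached 100 on at least 1 array. Of these 7, 4 were higher and 3 lower in knock out MEFs, with a median of 0.09. The next brightest had 511 and 402 (-0.35), in the other direction. A dim probe set of the type that can cross-hybridize (_x_at) had 95.6 and 191 (1.00), at least 1.91-fold higher, while the brighter one from the same source sequence had 278 and 253 (-0.14). The remaining probe sets that reached 100 had 163 and 187 (0.20), 161 and 138 (-0.22), and 98.8 and 119 (0.27), and the last of the 8 was near background (3.78 and 1.70). Spred2 had a second probe set at 133 and 118 (-0.16), another at 101 and 85.6 (-0.23), and the other 2 under 100 on both arrays (26.0 and 56.1, and 35.6 and 26.0).

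**Figure D2:**
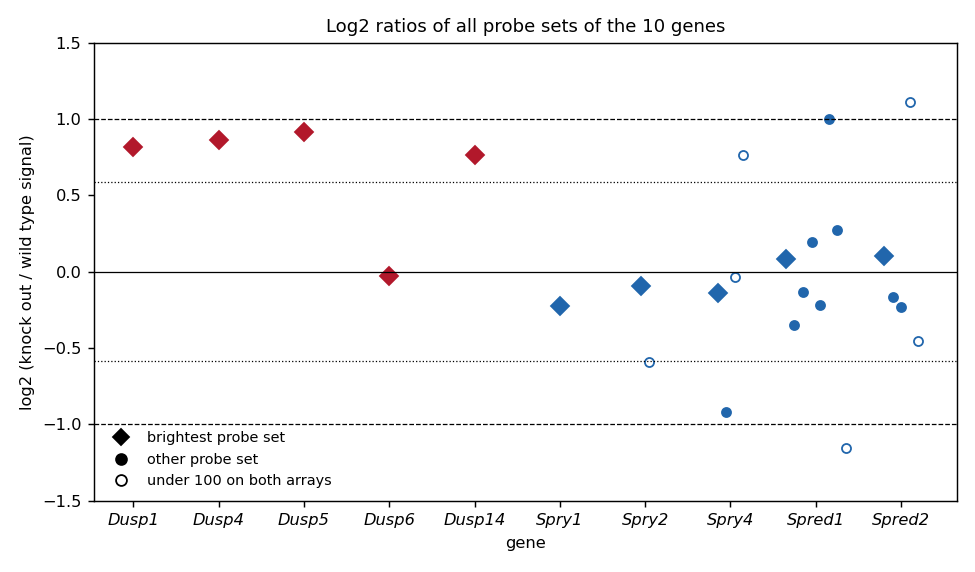
Log2 ratios (knock out divided by wild type signal) of all 25 probe sets of the 10 genes, with diamonds for the brightest probe set of a gene and open circles for the 6 probe sets under 100 on both arrays. Dotted lines mark 1.5-fold and dashed lines 2-fold. The diamonds of Dusp1, Dusp4, Dusp5 and Dusp14 lie between the upper dotted and dashed lines, and the probe sets of Spred1 spread from -1.15 to 1.00.

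Over all Sprouty and Spred probe sets that reached 100, 5 were higher and 9 lower, and 12 of the 14 had a ratio within 1.5-fold. The other 2 were the dim probe sets of Spry4 and Spred1 just described, of which that of Spry4 is not settled as over 1.5-fold, since its bound is 1.22-fold. As a measure of how well probe sets agree on these arrays, the 2 brightest probe sets of a gene differed in log2 ratio by a median of 0.30 over 4479 genes with at least 2 probe sets that reached 100, and by more than 0.84 in 10% of them. The brightest pair of Spred1 differed by less than that upper value, and the log2 ratios of Dusp1 and Dusp14 also lie below it. That of Dusp4 (0.86) lies just above it, and that of Dusp5 is 0.92, or 0.76 with its low signal set to 100. Of the 6 member probe sets under 100 on both arrays, 2 were higher and 4 lower. Among all 17165 such probe sets the log2 ratios had a standard deviation of 1.10 and a median of 0.13.

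Against all genes, the 10 members divide by fold. With the minimum of 500 and the 2-fold threshold of the study, 4 members were measured (Dusp1, Spry1, Spred1 and Spred2) and none was called, where 1.81% of 5014 genes were. With a minimum of 100 all 10 members were measured and again none was over 2-fold apart, against 3.52% of 10553 genes. At 1.5-fold and a minimum of 100, 4 of the 10 members were higher in knock out MEFs (Dusp1, Dusp4, Dusp5 and Dusp14), beside 5.27% of all genes. As the members were chosen with earlier results of these data known, the 2 shares are a description only. None was over 1.5-fold lower, beside 7.3% of all genes. Spike-in scaling ended all 4 calls, with 0 of the 10 members over 1.5-fold higher beside 1.298% of all genes, and 1 of them, Spry1 (-0.61), over 1.5-fold lower beside 34.8% of all genes. With a minimum of 500 the count at 1.5-fold was 1 of 4, Dusp1, beside 2.99% of all genes. Of the 10 members 6 had a log2 ratio above 0, where 41.9% of all genes did. The median log2 ratio was 0.82 for the 5 phosphatase genes and -0.09 for the 5 Sprouty and Spred genes, and that of all genes with the same minimum was -0.06.

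The width of the ratios depends on signal, so the members are also given beside genes of like brightness. Among 1351 genes with a geometric mean signal from 1000 to 2000, where Dusp1 lies, the standard deviation of the log2 ratio was 0.31 and 2.74% were over 1.5-fold higher. Among 3363 genes from 200 to 500, where Dusp4, Dusp6, Dusp14 and Spry2 lie, it was 0.40 and 3.78% were over 1.5-fold higher. From 100 to 200, where Dusp5 and Spry4 lie, it was 0.54 over 2100 genes, with 8.33% over 1.5-fold higher. From 500 to 1000, where Spry1, Spred1 and Spred2 lie, it was 0.33 over 2336 genes. These spreads are between genes on the same 2 arrays and are not an error of any one gene. The log2 ratio of 0.92 of Dusp5 therefore stands among more scattered values than the 0.82 of Dusp1.

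**Figure D3:**
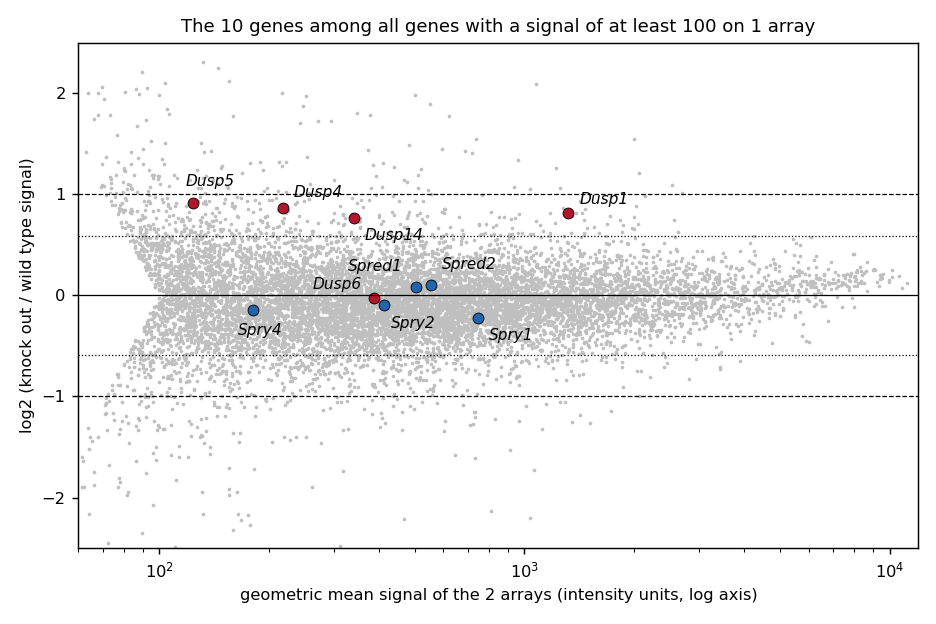
Log2 ratio (knock out divided by wild type signal) against the geometric mean signal (log axis) for 10507 genes with at least 100 on 1 array (grey, with 46 more outside the axes), with the 5 phosphatase genes in red and the 5 Sprouty and Spred genes in blue. Dusp5, Dusp4, Dusp14 and Dusp1 lie between the dotted 1.5-fold and the dashed 2-fold line, from dim to bright, and Dusp6 lies with the Sprouty and Spred genes near 0.

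The scaling of the arrays sets the height of the ratios, while the gap between the genes changed little. The deposited scaling gave Dusp1, Dusp4, Dusp5 and Dusp14 log2 ratios from 0.76 to 0.92, median centring gave 0.66 to 0.81, quantile normalization 0.78 to 0.87 and loess 0.79 to 0.88. Scaling to the 9 hybridization spike-ins, whose median log2 ratio was 0.39, lowered them to between 0.37 and 0.53. This scaling also moved the median of all genes that reached 100 from -0.06 to -0.46, while median centring moved it to -0.18. Relative to the median of all genes, the 4 phosphatase genes lay between 0.83 and 0.98 with the deposited scaling and between 0.84 and 0.99 with the spike-ins. The other 6 members lay between -0.16 and 0.16 of that median with the deposited scaling and between -0.15 and 0.18 with the spike-ins. The lowest of the 4 was above the highest of the other 6 by 0.66 with the deposited scaling, by 0.64 with quantile normalization and by 0.66 with loess. Median centring and spike-in scaling multiply the knock out array by a constant and cannot change this gap. For the same reason the distances from the median given for the spike-ins are nearly fixed in advance. As the 4 were set apart by their values, this gap is a description.

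**Figure D4:**
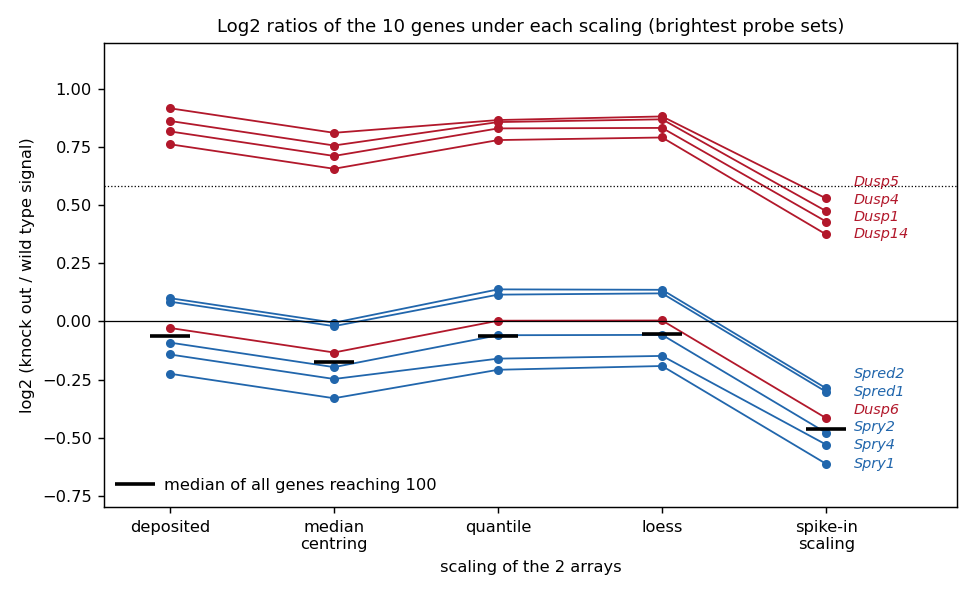
Log2 ratios of the brightest probe sets of the 10 genes under the deposited scaling and 4 others, phosphatase genes in red and Sprouty and Spred genes in blue, with the median of all genes that reached 100 as black bars. Spike-in scaling lowers every gene together, to 0.37 to 0.53 for the upper 4, and the bars follow from -0.06 to -0.46.

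Other genes of the pathway were read from 4 lists, each gene on its brightest probe set. Of 15 other dual-specificity phosphatase genes 12 reached 100, of which 7 were higher and 5 lower in knock out MEFs, with a median log2 ratio of 0.07. None of the 12 was over 1.5-fold apart, with values from -0.41 to 0.57. Named by a rule on signal were Dusp3, which encodes the small phosphatase VHR (856 and 1104, 0.37), and Dusp11, which encodes an RNA phosphatase (855 and 839, -0.03). Dusp3 has 3 probe sets, with log2 ratios from 0.26 to 0.74. Of the further MAP kinase phosphatases, Dusp8 had 153 and 227 (0.57), Dusp7, the cytoplasmic relative of Dusp6, had 272 and 342 (0.33), Dusp10 had 159 and 174 (0.13) and Dusp16 had 309 and 265 (-0.23). These 4, and Il17rd and Ptpre in the next list, were named after their values were seen.

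Of 19 other brakes on Ras and ERK 17 reached 100, with 11 higher, 6 lower and a median of 0.11. The rule on signal named Pebp1, which encodes the Raf kinase inhibitor protein (6263 and 6512, 0.06), and Ppp2ca, which encodes the catalytic subunit of protein phosphatase 2A (3860 and 3801, -0.02). Il17rd, which encodes the FGF antagonist Sef, was over 1.5-fold lower on its brightest probe set (293 and 161, -0.87) and nearer to level on the other (104 and 93.1, -0.16). Ptpre, which encodes a receptor-type tyrosine phosphatase, had 73.8 and 133 (0.85), a bound of at least 1.33-fold that does not settle a 1.5-fold difference. The partner of the Spred proteins, neurofibromin, is encoded by Nf1, which had 364 and 318 (-0.19). Cbl, the partner of Spry2, had 744 and 803 (0.11). The close relative Spred3 had 203 and 226 (0.15), and Spry3 was under 100 on both arrays (11.1 and 28.2).

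Of 28 adaptors, Ras, Raf, MEK and MAP kinase genes 21 were matched to a probe set of a single gene and 20 reached 100. Of these 5 were higher and 15 lower on their brightest probe sets, none was over 1.5-fold apart there, and the median was -0.12. The paper reported Sos1, a gene of this list, as raised in knock out MEFs by microarray and, as protein, by Western blot. Its brightest probe set here had 718 and 601 (-0.26). A probe set of Sos1 near background had 0.73 and 24.5 (5.07), and a brighter one had 130 and 177 (0.44). Its remaining probe sets were under 100 on both arrays. The rule on signal named Ptpn11, the gene of the phosphatase SHP2 (2225 and 2167, -0.04), and Map2k1, which encodes MEK1 (1535 and 1514, -0.02). Of 23 transcription factors and early genes linked to ERK 20 reached 100, with 12 higher, 8 lower and a median of 0.07. Of the 13 that reached 500, 11 were higher and 2 lower, with a median of 0.37 as deposited. Of all 5014 genes with that minimum 2115 were higher, with a median of -0.05. The higher minimum left out Fos, Egr2, Egr3, Elk1, Atf3 and Junb, all lower in knock out MEFs, and Etv5, which was higher. Among these 13 genes 3 were over 2-fold higher, beside 38 of all 5014 genes with that minimum. They were Fosl1 (315 and 695, 1.14), Phlda1 (862 and 1805, 1.07) and Plaur, which encodes the urokinase receptor (419 and 1128, 1.43). Fosl1 and Plaur reached 500 only on the knock out array, so they entered the 13 through the signal that is higher. Jun, which encodes an AP-1 subunit, was over 1.5-fold higher on its brightest probe set (656 and 1064, 0.70) but not on the other, of similar signal (615 and 659, 0.10). Elk1 (182 and 103, -0.83) and Egr2 (186 and 111, -0.74) were over 1.5-fold lower on their brightest probe sets. A second probe set of Egr2 had 138 and 101.9 (-0.44), and one of Elk1 was under 100 (74.3 and 86.1). These 3 genes were named after their values were seen. Egr1, a classic serum response gene, was near level (3370.4 and 3121, -0.11), and so was Mcl1, a survival gene (1934 and 1997, 0.05). Fos, the immediate early gene often induced beside Dusp1, was 483 and 384 (-0.33). On the brightest probe sets, values of this list lay between -0.83 and 1.43. This is a wider range than that of the kinase genes on theirs, which ran from -0.53 to 0.34. The comparison covers the brightest probe sets only. Other probe sets of kinase list genes went beyond 1.5-fold in both directions, among them those of Gab1 (285 and 137, -1.06) and Map2k3 (395 and 686, 0.80). Those of Araf went both ways (269 and 138, -0.96, and 277 and 494, 0.84). The signs of the list medians over genes that reached 100 depend on the scaling. Over the same genes, spike-in scaling put the medians at -0.32 for the other phosphatases, -0.28 for the brakes, -0.50 for the kinases and -0.31 for the early genes, and median centring gave -0.04, 0.00, -0.22 and -0.03. Quantile normalization and loess kept the signs given above.

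**Figure D5:**
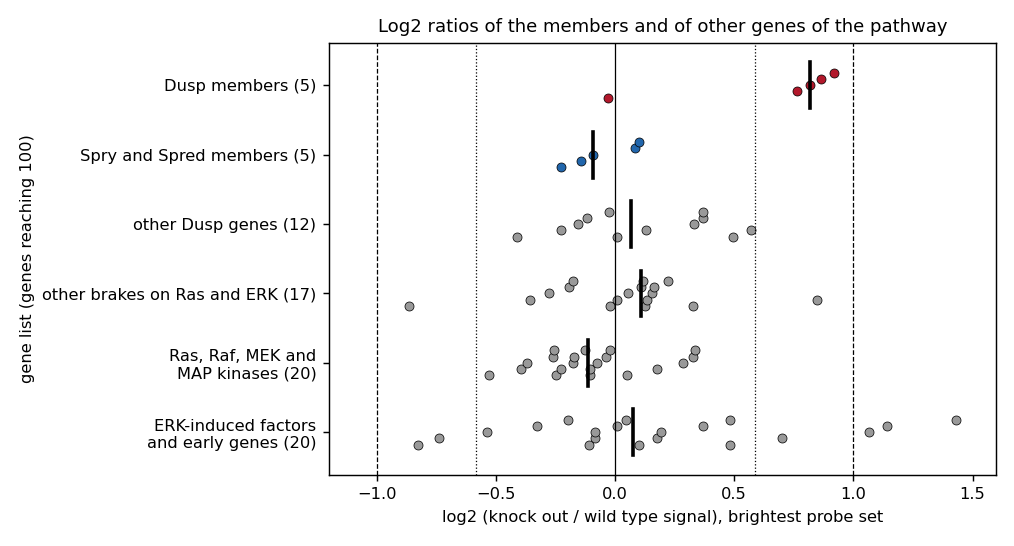
Log2 ratios (knock out divided by wild type signal) of the members and 4 lists of other genes of the pathway, each point a gene that reached 100 on at least 1 array (their number in parentheses) and each black bar a median. Dusp1, Dusp4, Dusp5 and Dusp14 lie right of the dotted 1.5-fold line, as do none of the 12 other dual-specificity phosphatase genes shown, and 3 early genes lie right of the dashed 2-fold line.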

How the data were processed

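RNA of wild type and of Ebp1 knock out MEFs had been labeled and hybridized to Affymetrix arrays, 1 per genotype. The deposited values are linear signal intensities, which the authors made with Microarray Suite 5.0 (MAS5) from perfect-match and mismatch probes and scaled to a constant target intensity on each array. Such scaling fixes the array mean, so a ratio is relative to all transcripts measured. Probe sets were named through GEO's platform annotation, in which 34945 of 45037 had 1 gene symbol, 932 had several and 9160 were unnamed here, and the Entrez identifiers of 34741 were found in RefSeq (GRCm38.p6). The 64 control probe sets were left out.

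For each gene the probe set with the highest mean log2 signal was reported and the others were given beside it. Signals under 100 count as low, and beside a fold against one a bound with the low signal set to 100 is given, while counts used the ratios as deposited. The ratio of knock out to wild type signal is given as log2. Counts used a minimum of 500 or 100 on at least 1 array and thresholds of 2-fold (the study's) and 1.5-fold. No test was run, because 1 array per genotype has no spread, and the number of arrays limits the precision. The genes named are all 10 members with every probe set, Pa2g4, and of each list the genes over 2-fold apart with at least 500 and the 2 brightest. Others were chosen after their values were seen, among them Nf1, Cbl, Spred3, Spry3, Fos, Sos1, Gab1, Araf and Map2k3. With 2 arrays no genes were ranked by likeness of pattern.

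The members and lists were chosen with earlier results of these data known, and so were the promoter elements. Alternatives tried were scaling by spike-ins, loess (fraction 0.3), quantile normalization, median centring, signals raised to 100, 50 added, the mean over all probe sets, probe sets without _x_at and _s_at, and the probe set brightest on the wild type array. Recovery of known ratios was tested on simulated data, in genes of at least 500 in wild type cells and with ratios larger than those of the members. It does not bear on ratios as small, or signals as low, as those of most members. Software was pandas 2.3.3, numpy 2.4.6, matplotlib 3.10.9 and statsmodels 0.14.6 under Python 3.11.15.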

Additional observations from a re-analysis of the deposited data

How the results depend on the processing

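Of 90 log2 ratios of the 10 members under 9 alternative settings, none moved by over 1.5-fold and 9 changed sign, all of Dusp6 (2), Spred1 (5) and Spred2 (2), whose ratios are near 0. Part of this is by construction, as choices of probe set cannot change the 6 members with 1 probe set. Spike-in scaling shifts every log2 ratio by 0.39, which is under 1.5-fold and could not count as a move. It still ended all 4 calls of over 1.5-fold higher. Dusp1 lay between 0.43 and 0.83, Dusp4 between 0.47 and 0.87, Dusp5 between 0.53 and 0.92 and Dusp14 between 0.37 and 0.79, each lowest with spike-ins. The count of members over 2-fold, which is 0 at either minimum (500 or 100), was 0 under each of these settings, with other minimum signals and at 3-fold. A threshold of 1.5-fold gave 1 and 4, by construction of the lower threshold. The median of the 10 members, 0.09, turned to -0.01 with median centring and -0.30 with spike-ins and was 0.02 to 0.13 under the other scalings and choices of probe set. The number of members with a log2 ratio above 0, 6 as deposited, ran from 4 (median centring and spike-ins) to 7 (quantile normalization and loess). No paired analysis was possible because each genotype has 1 array, and for the same reason no replicate could be left out. What limits many ratios is dim signal: 57.9% (wild type) and 57.1% (knock out) of probe sets read under 100.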

Other observations

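Dual-specificity phosphatase genes too dim to be counted above are given here as values. Dusp9, which encodes a cytoplasmic phosphatase of ERK, had a higher signal in knock out MEFs on each of its 3 probe sets, with 45.6 and 82.3, 29.5 and 101, and 17.7 and 58.3. Dusp2, an inducible nuclear phosphatase known from lymphocytes, had 38.9 and 70.8. Dusp27 had 50.6 and 89.5 on one probe set and 43.0 and 93.9 on the other. Others were level or mixed: Dusp13 had 80.4 and 80.8, Dusp21 had 59.6 and 71.3, Dusp26 had 12.3 and 12.0, and the probe sets of Dusp15 went opposite ways (19.6 and 52.1, and 34.5 and 7.45). Except for 1 probe set of Dusp9 on the knock out array, these signals are under 100, and of all probe sets under 100 on both arrays 57.4% had a log2 ratio above 0.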
